A study of Homo sapiens with 6 samples.

Results

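GH1 and 9 genes of growth hormone and prolactin signalling were examined in MDA-MB-453, a long-established line of human breast cancer cells, transfected either with control vector (3 libraries) or with a construct for overexpression of ZNF207 (3 libraries). All 10 symbols were found among the 60569 gene names of the deposited table. GH1 was chosen by its FPKM values, which lay far apart in the 2 groups, so its difference is described here without a test. The other 9, GHR, PRLR, JAK2, STAT5A, STAT5B, SOCS2, CISH, IGF1 and IGF1R, were taken for their place in the pathway. The sources used here do not give the constructs' sequences, the time after transfection or any selection of transfected cells. The design text calls the 3 libraries of each group biological replicates.

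Growth hormone is normally secreted by somatotroph cells of the pituitary, and prolactin by its lactotroph cells. Each binds a cytokine receptor of the same family, GHR or PRLR, which activates the bound tyrosine kinase JAK2. JAK2 phosphorylates the transcription factors STAT5A and STAT5B, which enter the nucleus and bind DNA. Among their best known targets are CISH and SOCS2, whose products feed back on the receptor, and IGF1, the secreted growth factor that acts through IGF1R. Human growth hormone binds the prolactin receptor as well as its own, and in the mammary gland this pathway drives alveolar growth and milk protein genes.

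GH1 was the one gene of the pathway whose groups stood far apart, and the tested genes downstream of it did not pass the test. It ranked between 799 and 1092 from the top of all gene names in the control libraries and between 16200 and 20954 in the libraries with the ZNF207 construct, where it was listed at 0 in 2 of 3. Of the other 9 members 7 reached the minimum level for testing, and 0 of these 7 rose or fell. Their estimates, as log2 changes of FPKM + 1 (FPKM is the number of fragments scaled to transcript length and to the library's mapped total), ran from -0.16 to 0.23, with a median of 0.09 against -0.01 over all 13185 tested genes. Over all tested genes limma gave an adjusted p under 0.05 for 0.212%, with 0.0531% called higher and 0.159% called lower, so a count of 0 among 7 lies near the background. The same 7 genes included 0 at an unadjusted limma p under 0.05, against 12.1% of all tested genes. Among so few genes a count of 0 lies near that share.

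GH1 lies on chromosome 17 (63917200 to 63918838, minus strand, GRCh38), in a cluster with the placental growth hormone gene GH2 and the chorionic somatomammotropin genes CSH1, CSH2 and CSHL1. These copies are so alike that a value for one depends on how reads were assigned, so coding sequence is shown for all 5. The coding sequence of the GH1 transcript, 651 bases without the stop codon, differed at 35 bases from GH2 (94.6% identical), at 47 from CSH1 (92.8%), at 49 from CSH2 (92.5%) and at 58 from CSHL1 (91.1%). The first 90 bases of exon 5, all coding, are given below from GENCODE v29 transcripts, 5′ to 3′ on the minus strand, with capitals at bases that differ from GH1. They lie at chr17:63917417-63917506 for GH1, chr17:63880429-63880518 for GH2, chr17:63895130-63895219 for CSH1, chr17:63872234-63872323 for CSH2 and chr17:63909819-63909908 for CSHL1.
GH1: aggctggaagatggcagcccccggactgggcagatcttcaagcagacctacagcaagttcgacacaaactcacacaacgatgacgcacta
GH2: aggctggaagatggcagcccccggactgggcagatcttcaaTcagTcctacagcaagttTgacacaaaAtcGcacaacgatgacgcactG
CSH1: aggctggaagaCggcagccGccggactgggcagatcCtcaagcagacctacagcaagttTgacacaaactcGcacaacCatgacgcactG
CSH2: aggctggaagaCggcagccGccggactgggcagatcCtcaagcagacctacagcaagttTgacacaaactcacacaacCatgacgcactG
CSHL1: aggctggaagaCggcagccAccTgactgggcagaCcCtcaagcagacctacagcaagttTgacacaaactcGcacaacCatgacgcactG
In this stretch GH2 and CSH2 each differ from GH1 at 6 bases, CSH1 at 7 and CSHL1 at 9.

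Most short stretches of GH1 differ from these copies. Of the 754 windows of 50 bases in the GH1 transcript, 131 (17.4%) occur unchanged in a GH2 transcript, 34 (4.51%) in one of CSHL1 and 25 (3.32%) in one each of CSH1 and CSH2. At 100 bases GH2 shared 55 of 704 windows (7.81%). The exception is AC127029.3, annotated as a protein-coding gene that overlaps GH1 and reaches into CD79B. AC127029.3 shares 703 of the 754 windows (93.2%). The annotated span of CSHL1 (63909597 to 63918838) also covers GH1. Neither the read length nor the handling of shared reads is stated in the labels, so the division between GH1 and AC127029.3 is uncertain.

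GH1 stood at 115 FPKM in control replicate 1, 93.8 in control replicate 2 and 93.8 in control replicate 3. In the libraries with the ZNF207 construct it was listed at 0, 0.275 and 0 FPKM in replicates 1, 2 and 3. All 3 controls were high, all 3 libraries of the other group were at or near 0, and the groups did not overlap. The log2 change of FPKM + 1 was -6.55, a value set largely by the pseudocount because 2 libraries are listed at 0.

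The other ligands were absent or nearly so. GH2, CSH2, CSHL1 and prolactin's own gene, PRL, were listed at 0 in all 6 libraries. CSH1 was listed at 0.138 FPKM in control replicate 3 and at 0 in the other 5. AC127029.3 was listed at 0 in all 6, so in these files nearly all of the cluster's signal in the controls is assigned to GH1. The table gives 1 value per gene and no position along it, and reads from the chromosomal gene and reads from any growth hormone sequence carried on a construct cannot be told apart in it.

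**Figure D1:**
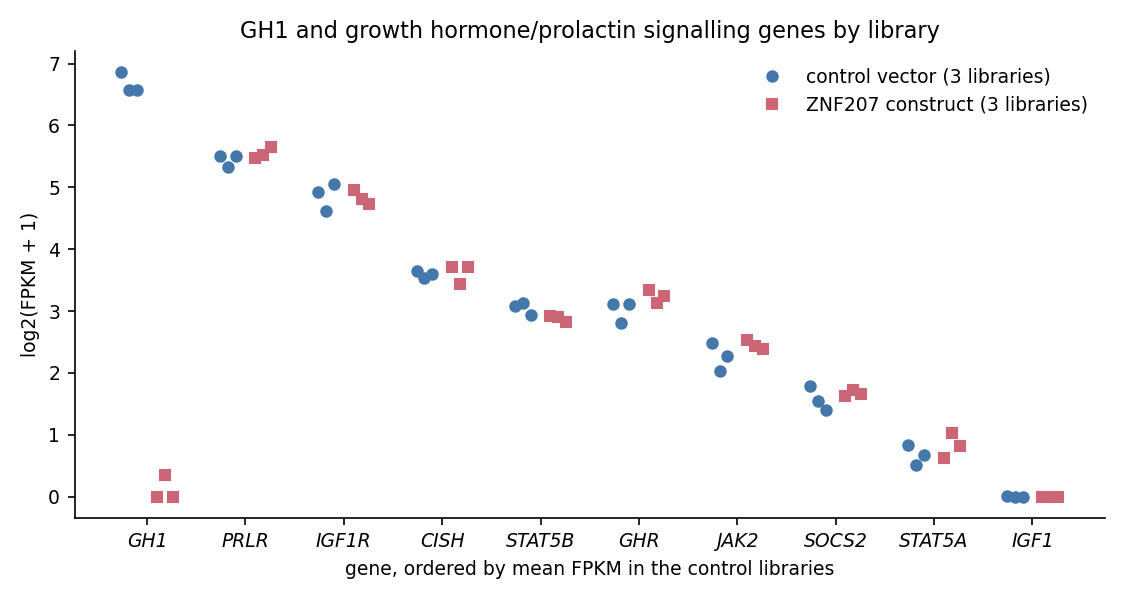
Level of the 10 genes in each library, as log2(FPKM + 1), with genes ordered by their mean FPKM in the controls. Circles are the 3 control vector libraries and squares the 3 libraries with the ZNF207 construct. GH1 is at 93.8 to 115 FPKM in controls and at 0 to 0.275 FPKM with the construct, while the points of each other gene lie close together.

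The genes around GH1 were described next. Of 13 other protein-coding genes within 100 kb, 4 reached the minimum level, all of them beyond the other genes of the cluster. DDX42, an RNA helicase gene whose span ends 97.9 kb away, had a log2 change of -0.06 (limma adjusted p = 0.736). FTSJ3, a ribosome maturation factor gene, had 0.03 (adjusted p = 0.866), and the proteasome subunit gene PSMC5 had 0.02 (adjusted p = 0.917). SMARCD2, a subunit gene of the SWI/SNF remodelling complex 74.1 kb away, measured 122, 121 and 124 FPKM among control libraries, against 124, 124 and 131 FPKM with the construct (log2 change 0.05, adjusted p = 0.725). Its groups did not overlap. The 4 genes had values between 50.6 and 170 FPKM in all 6 libraries. Of the 4, 0 passed the test, against 0.212% of all tested genes.

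The other 9 protein-coding genes in the window, on either side of GH1, were at low levels or at 0 in both groups. CD79B, a B cell receptor gene 9.9 kb away, was listed at 0 in 5 libraries and at 0.0328 FPKM in overexpression replicate 3. SCN4A, the skeletal muscle sodium channel gene 19.7 kb away, lay between 0.12 and 0.388 FPKM in the controls. With the construct it lay between 0.0432 and 0.07 FPKM, lower without overlap, and at these levels it was not tested. ICAM2, an endothelial adhesion gene 83.8 kb away, reached 0.083 FPKM. PRR29, 79.5 kb away, ranged from 0.281 to 1.3 FPKM, with its highest value in control replicate 1. Among protein-coding genes between SMARCD2 and the end of the window, GH1 alone reached the minimum level for testing.

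**Figure D2:**
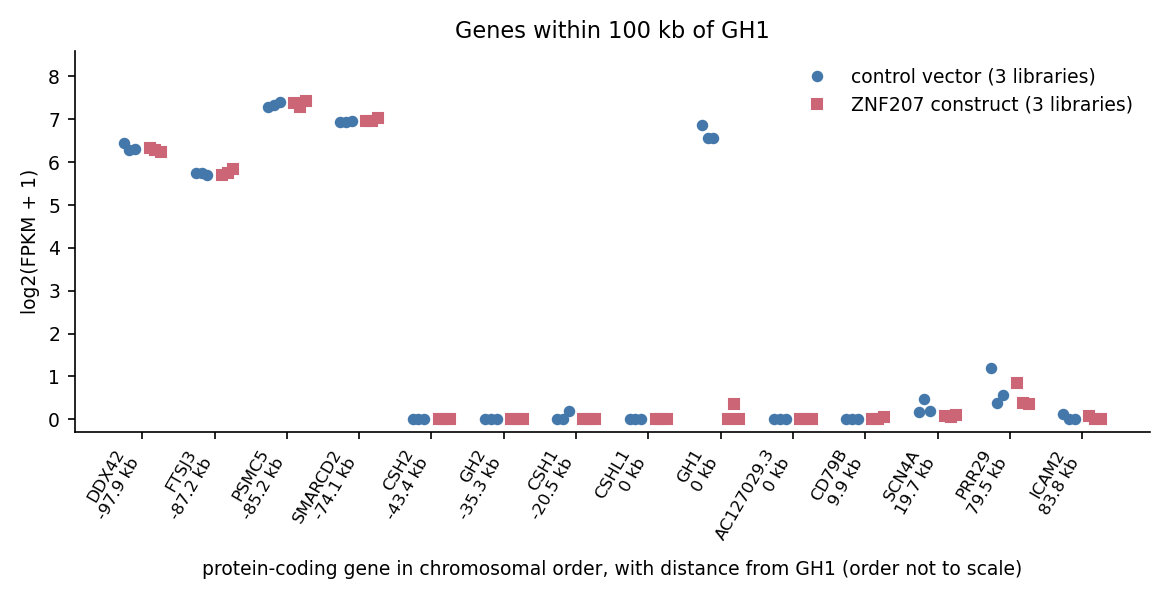
Level of GH1 and the 13 other protein-coding genes within 100 kb, as log2(FPKM + 1), in chromosomal order, with the gap in kb between each gene and GH1 under its name (negative before GH1). Circles are controls and squares libraries with the ZNF207 construct, 3 of each. The 4 genes on the left lie at the same height in both groups, the genes next to GH1 are at or near 0, and GH1 is high in the controls alone.

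Marker genes of the pituitary, of growth hormone cells and of its other cells, were mostly low. Of the 14 listed, 10 were under 1 FPKM in all 6 libraries. Of 14 pituitary genes, 5 were listed at 0 in all 6 libraries, among them POU1F1, a factor that specifies the somatotroph lineage, and the hormone genes PRL, TSHB and FSHB. GHRHR, the receptor for growth hormone releasing hormone, was listed at 0.0371 FPKM in overexpression replicate 1 and at 0 elsewhere. Another 4, among them CGA, LHX4 and PITX1, were at 1 FPKM or more in all 6. Of these 4, 0 passed the test, against 0.212% of all tested genes. Over the whole list the summed level was 34.0 to 35.7 FPKM in the controls and 39.0 to 41.7 FPKM with the construct. Most of it was PITX1, a homeobox factor, at 28.3 to 34.8 FPKM and higher in all 3 libraries with the construct. Its log2 change was 0.24 (limma adjusted p = 0.129). LHX4 went the other way, lower in all 3 (log2 change -0.29, adjusted p = 0.434). Over all tested genes 7.61% were higher without overlap and 10.4% lower. The part of these markers in the GH1 difference was not tested. Of 10 luminal apocrine markers 9 were at 1 FPKM or more in every library, the exception being TFAP2B. Of 10 basal, stromal and immune markers 9 were under 1 FPKM in all 6, the exception being COL1A1, at 7.98 to 11.3 FPKM. ZNF207 itself stood at 63.7 to 69.2 FPKM in controls and 750.0 to 885 FPKM with its construct. The libraries held 13061 to 13231 genes at 1 FPKM or more, and read depth is unknown.

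Both receptors were expressed. PRLR, the prolactin receptor gene on chromosome 5 (35048756 to 35230589, minus strand), measured 44.2, 39.3 and 44.3 FPKM among control libraries, against 43.4, 44.9 and 49.4 FPKM with the ZNF207 construct. The ranges overlap, with control replicate 2 lowest and overexpression replicate 3 highest. Its log2 change was 0.11 (SE 0.07, 95% interval -0.06 to 0.27, limma adjusted p = 0.609). Leaving out either control replicate 2 or overexpression replicate 3 brought the PRLR change to 0.05. GHR, the growth hormone receptor gene further along the same chromosome (42423777 to 42721878, plus strand), measured 7.62, 6.03 and 7.70 FPKM among control libraries, against 9.14, 7.78 and 8.49 FPKM with the construct. Its groups did not overlap, but the highest control (7.70) lay close to the lowest library with the construct (7.78). GHR had a log2 change of 0.23 (SE 0.11, 95% interval -0.02 to 0.48), which did not pass the test (adjusted p = 0.459). Without control replicate 2, the lowest library, the GHR change was 0.13. Per length of transcript, PRLR exceeded GHR by 4.75 to 6.53 times in each of the 6 libraries.

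JAK2, the kinase bound to both receptors (chromosome 9, 4984390 to 5128183, plus strand), was at a lower level. It measured 4.60, 3.09 and 3.85 FPKM among control libraries, against 4.78, 4.39 and 4.20 FPKM with the construct. The groups overlap, since control replicate 1 lies above overexpression replicates 2 and 3. The log2 change was 0.18 (SE 0.13, 95% interval -0.12 to 0.48, adjusted p = 0.643). It was 0.06 without control replicate 2, the lowest library, and 0.29 without control replicate 1.

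Of the STAT5 pair, STAT5B was the more abundant. The 2 genes are neighbours on chromosome 17 and transcribed away from each other, STAT5B at 42199168 to 42276707 on the minus strand and STAT5A at 42287547 to 42311943 on the plus strand. STAT5B measured 7.46, 7.79 and 6.66 FPKM among control libraries, against 6.60, 6.48 and 6.11 FPKM with the construct. The groups did not overlap, though the lowest control (6.66) lay close to the highest library with the construct (6.60). Its log2 change was -0.16 (SE 0.09, 95% interval -0.38 to 0.05, adjusted p = 0.532). STAT5A measured 0.773, 0.418 and 0.591 FPKM among control libraries, against 0.538, 1.03 and 0.758 FPKM with the construct, under the minimum for testing in all but 1 library. Its groups overlap, and an exact two-sided permutation test on log2(FPKM + 1) gave p = 0.5, where 3 against 3 libraries cannot go below 0.1. STAT5B exceeded STAT5A by 6.29 to 18.6 times per length of transcript. Of the 50-base windows of the STAT5A transcript, 507 of 4252 (11.9%) also occur in STAT5B, so their low values depend in part on how shared reads were assigned.

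The feedback genes CISH and SOCS2 are the usual readouts of STAT5 activity. STAT5 dimers bind the palindrome TTCNNNGAA, where N is any base, which reads the same on both strands. RefSeq promoter sequences, 250 bases before to 50 bases after a gene's start (GRCh38.p14), were found for 8 of the 10 members, all but GH1 and SOCS2. CISH held 4 matches, 1 of 7 annotated GHR promoters held 1, and none of the promoters of PRLR, JAK2, STAT5A, STAT5B, IGF1 or IGF1R held any. Among 35116 promoters of this length 7.66% held at least 1 match and 0.0484%, or 17, held 3 or more. The 250 bases before the CISH start (chr3:50611775-50612024, minus strand) are shown because they hold all 4 matches, which are in capitals.
CISH: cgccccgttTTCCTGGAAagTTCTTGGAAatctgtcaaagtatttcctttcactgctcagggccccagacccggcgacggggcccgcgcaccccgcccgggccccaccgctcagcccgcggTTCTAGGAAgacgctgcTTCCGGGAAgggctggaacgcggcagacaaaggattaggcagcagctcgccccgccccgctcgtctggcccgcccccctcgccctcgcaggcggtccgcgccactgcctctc
The matches begin 241, 230, 129 and 112 bases before the start and fall into 2 pairs. A match describes the sequence and does not show that STAT5 binds it in these cells.

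CISH (chromosome 3, 50606490 to 50611831, minus strand) measured 11.5, 10.6 and 11.1 FPKM among control libraries, against 12.1, 9.89 and 12.1 FPKM with the ZNF207 construct. Overexpression replicate 2 is the lowest of the 6 libraries and the other 2 of its group are the highest, so the groups overlap fully. Its log2 change was 0.03 (SE 0.09, adjusted p = 0.938). The 95% interval of -0.18 to 0.24 corresponds to a ratio of FPKM + 1 between 0.88 and 1.18. CISH shares its listed locus with MAPKAPK3, which is also expressed, but none of the 50-base windows of its transcript occurs in another gene. Of the 10 members 9 share a listed locus with another gene name. For 3 of them, CISH, IGF1 and IGF1R, such a gene is at 1 FPKM or more in a library.

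SOCS2 (chromosome 12, 93569814 to 93583487, plus strand) measured 2.46, 1.93 and 1.65 FPKM among control libraries, against 2.10, 2.31 and 2.17 FPKM with the construct. The controls span the whole range of the other group. Its log2 change was 0.09 (SE 0.14, adjusted p = 0.844), with a 95% interval of -0.23 to 0.42, or a ratio of FPKM + 1 between 0.853 and 1.34. The SOCS2 change was 0.0049 without control replicate 3 and 0.20 without control replicate 1. At this level the pseudocount of 1 shrinks changes.

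At the growth factor end of the pathway the receptor gene was expressed and the ligand genes were low. IGF1 (chromosome 12, 102395874 to 102481744, minus strand) was listed at 0.0112 FPKM in control replicate 1 and at 0 in the other 5 libraries. IGF2, whose product also binds IGF1R, lay between 0.424 and 0.858 FPKM over the 6 libraries, under the minimum for testing. IGF1R (chromosome 15, 98648539 to 98964530, plus strand) measured 29.2, 23.4 and 32.1 FPKM among control libraries, against 30.0, 27.1 and 25.5 FPKM with the construct. All 3 libraries with the construct lie between the lowest and the highest control. The log2 change was -0.03 (SE 0.11, 95% interval -0.28 to 0.22, adjusted p = 0.95).

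**Figure D3:**
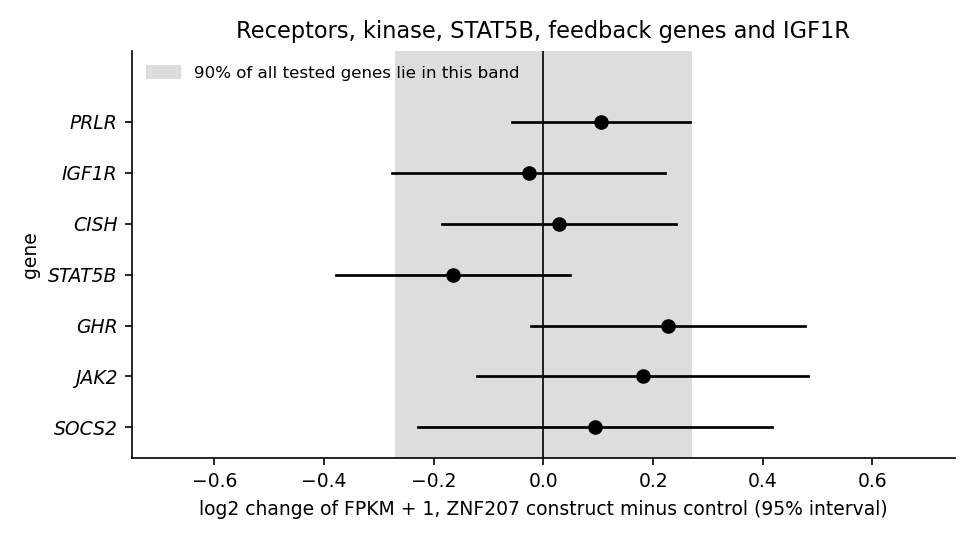
Log2 change of FPKM + 1 for the 7 tested members other than GH1, ZNF207 construct minus control vector, with 95% intervals from limma (not adjusted for the number of genes). The grey band spans -0.27 to 0.27, which holds 90% of the absolute changes of all 13185 tested genes. All 7 intervals include 0 and all 7 estimates lie inside the band.

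Ordered by control mean, the members ran GH1, PRLR, IGF1R, CISH, STAT5B, GHR, JAK2, SOCS2, STAT5A, IGF1. Ranges of neighbours in this order overlapped among the controls only for STAT5B and GHR. Of the 7 tested members other than GH1 the groups did not overlap for 2, GHR upward and STAT5B downward. Over all tested genes 18.0% had groups that do not overlap, 7.61% upward and 10.4% downward, so 2 of 7 is a count of the size the background gives. In the libraries with the construct the mean of GH1 lay between those of STAT5A and IGF1, and GHR stood above STAT5B in all 3.

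Lists of other genes in the pathway were then counted. Together 58 of 75 genes in 5 lists were tested, 0 rose and 0 fell, and the median log2 change was -0.0141, against -0.00781 over all tested genes. Over all tested genes limma called 0.212%, so a count of 0 in each of these lists lies near the background. By unadjusted p under 0.05, 6 were higher and 7 lower, 22.4% of the 58 against 12.1% of all tested genes. Their groups did not overlap for 14 (24.1%) against 18.0%.

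Of 18 signal transducers 15 were tested, 0 rose and 0 fell (median -0.02). SH2B2, an adaptor that binds JAK2, measured 10.6, 14.0 and 10.98 FPKM among control libraries, against 8.52, 9.85 and 8.08 FPKM with the construct (log2 change -0.38, SE 0.12, adjusted p = 0.234). The groups did not overlap. The largest upward estimate was that of STAT2, a transcription factor of interferon signalling, at 39.6 ± 1.59 and 44.4 ± 2.38 FPKM (SD, n = 3 each; limma adjusted p = 0.341). The adaptor gene GRB2 had a log2 change of -0.09 (adjusted p = 0.615).

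All 17 genes listed as negative regulators were tested, 0 rose and 0 fell, and their median log2 change was 0.00. The list was drawn up by hand, and not every gene on it acts only as an inhibitor. The smallest adjusted p of the 58 genes tested in the 5 lists was that of PIAS2, a SUMO ligase gene named for inhibiting activated STATs. PIAS2 measured 56.0, 54.2 and 52.7 FPKM among control libraries, against 41.9, 46.5 and 39.0 FPKM with the construct, without overlap (log2 change -0.35, SE 0.07, adjusted p = 0.0895). PTPN6, the phosphatase SHP-1, stood at 14.2, 19.0 and 15.8 FPKM and at 18.6, 19.2 and 19.9 FPKM, with overlap through control replicate 2 (log2 change 0.23, adjusted p = 0.397). The 2 most abundant, PIAS3 and the phosphatase gene PTPN11, had log2 changes of 0.00 (adjusted p = 0.986) and 0.02 (adjusted p = 0.907).

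Of 18 genes listed as STAT5 targets 12 were tested, 0 rose and 0 fell (median 0.01). That list was also drawn up by hand, and whether its genes answer to STAT5 in these cells was not tested. The milk protein genes CSN1S1, CSN2, CSN3 and LALBA, and TNFSF11, which encodes RANKL, were listed at 0 in all 6 libraries, and PIP, the prolactin-induced protein gene, reached 0.205 FPKM. EHF, an epithelial ETS factor gene, measured 13.6, 12.5 and 11.2 FPKM among control libraries, against 15.8, 15.7 and 14.9 FPKM with the construct, without overlap (log2 change 0.29, SE 0.08, adjusted p = 0.208). The kinase gene PIM2 went the other way, at 9.18, 8.17 and 8.10 FPKM and at 7.21, 7.55 and 7.13 FPKM (log2 change -0.19, adjusted p = 0.432). CCND1, the cyclin D1 gene and the most abundant of the list, stood at 472 ± 15.3 and 422 ± 16.4 FPKM (SD, n = 3 each; log2 change -0.16, limma adjusted p = 0.258). The cell cycle inhibitor gene CDKN1A, second in level, had 0.01 (adjusted p = 0.96).

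Of 12 further genes of the IGF axis 8 were tested and 0 passed, with a median log2 change of -0.13. Groups did not overlap for 4 of the 8, all lower with the construct, where 10.4% of all tested genes were lower without overlap. IGFBP3, a carrier of IGF in plasma, measured 2.41, 2.61 and 1.92 FPKM among control libraries, against 1.36, 1.39 and 1.37 FPKM with the construct (log2 change -0.48, SE 0.14, adjusted p = 0.222). At this level the pseudocount of 1 shrinks the change, and at a pseudocount of 0.1 it was -0.70 (limma adjusted p = 0.234). STC2, a secreted inhibitor of the protease PAPPA, stood at 85.7, 103 and 79.4 FPKM and at 66.8, 72.9 and 57.8 FPKM (log2 change -0.43, SE 0.11, adjusted p = 0.137). PAPPA itself was listed at 0 in 5 libraries and at 0.0047 FPKM in control replicate 3. IGFBP5, the most abundant binding protein gene here, stood at 360, 337 and 348 FPKM and at 307, 300 and 288 FPKM (log2 change -0.22, SE 0.05, adjusted p = 0.12). The fourth is IGFBP4, chosen after its values were seen, at 46.6 ± 0.67 and 41.4 ± 2.34 FPKM (SD, n = 3 each; limma adjusted p = 0.305).

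Of 10 subunit genes of other receptors that use JAK2, 6 were tested, 0 rose and 0 fell (median 0.02). IL6ST, the shared receptor subunit gp130, measured 23.7, 21.2 and 23.2 FPKM among control libraries, against 25.97, 24.2 and 39.0 FPKM with the construct (log2 change 0.35, SE 0.15, adjusted p = 0.399). One library sets most of this difference, and without overexpression replicate 3 the log2 change was 0.14. EPOR, the erythropoietin receptor gene, stood at 11.5 ± 1.01 and 9.97 ± 0.11 FPKM (SD, n = 3 each; limma adjusted p = 0.431). IFNGR1, the gene of 1 subunit of the interferon gamma receptor, had a log2 change of 0.06 (adjusted p = 0.775).

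**Figure D4:**
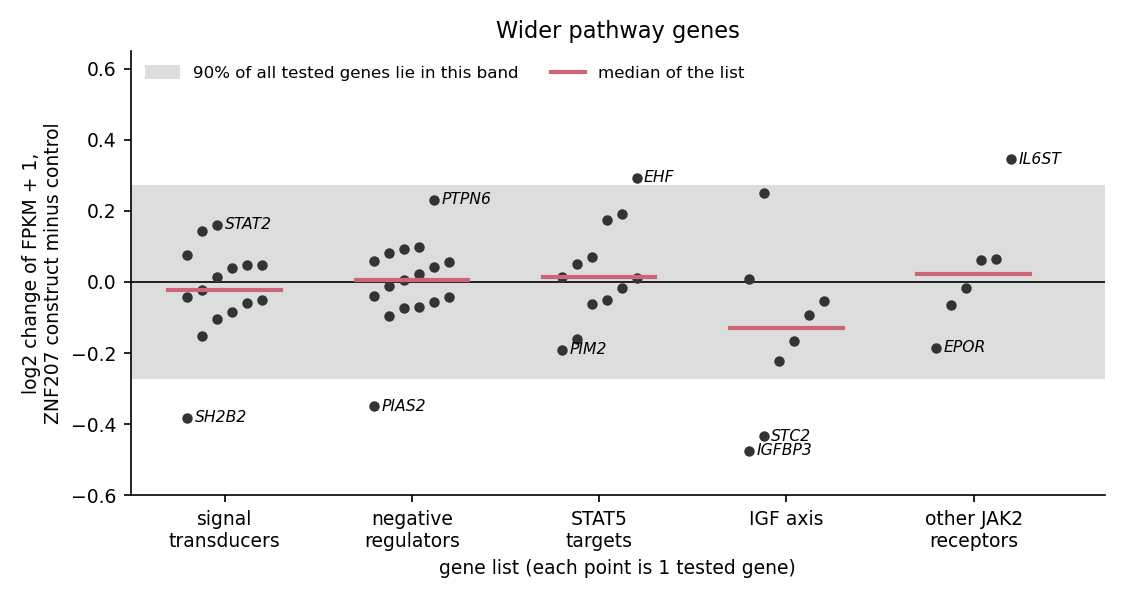
Log2 change of FPKM + 1, ZNF207 construct minus control vector, for each tested gene of the 5 wider lists, with the list medians as red lines and the 2 largest changes of each list named. The grey band spans -0.27 to 0.27, which holds 90% of the absolute changes of all tested genes. IGFBP3 at -0.48 and STC2 at -0.43 lie lowest and IL6ST at 0.35 highest. Of the 58 genes 0 passed the test, against 0.212% of all tested genes.

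GH1 was the only 1 of 60569 gene names with at least 5 FPKM in every control and under 1 FPKM in every library with the construct. It was chosen by such values, so its meeting of this pattern is no further result. The reverse pattern also had 1 gene, AC005899.5, listed on a stretch of chromosome 17 that spans ZNF207, which had 0 in each control but 33.0, 9.19 and 43.1 FPKM with the construct. By Pearson correlation of log2(FPKM + 1) over the 6 libraries, the genes most like GH1 were COX19 (r = 0.999), LINC00963 (0.997), CRKL (0.996), LOX (0.995) and AL133461.1 (0.993). Such values mainly reflect the 2 groups, and 115 of 13184 genes reached 0.95 or more. The sizes differ widely. LOX went from 12.0, 11.1 and 10.4 FPKM to 5.05, 5.64 and 5.18 FPKM, and COX19, a mitochondrial copper factor gene, from 9.14, 9.09 and 8.93 FPKM to 6.60, 6.82 and 6.68 FPKM. AL133461.1 alone among the 5 was listed at 0 in all 3 libraries with the construct, after 1.93, 1.44 and 1.37 FPKM in the controls. CRKL, an SH2 domain adaptor gene, stood at 59.4 ± 0.349 and 53.2 ± 0.105 FPKM, and the noncoding RNA gene LINC00963 at 84.6 ± 0.649 and 71.7 ± 0.697 FPKM (SD, n = 3 each).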

How the data were processed

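RNA from 6 MDA-MB-453 libraries was compared, 3 per group. The authors deposited FPKM values, 1 column per library. The submitters' processing notes name hg38, Bowtie2, DESeq2 1.4.5 and RSEM 1.3.1, without their roles. Annotation and strand are not stated in the labels. Columns were matched to samples by group and final digit of their names alone. Where a gene name had several rows, the highest was kept (no member had several). Low values showed no steps of whole reads: the commonest ratio between 2 libraries covered 1.25% of 1124 low genes, so depth is unknown and no interval needing it is given.

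Tests used log2(FPKM + 1) and the 13185 genes that reached an FPKM of 1 in 3 libraries, with limma 3.58.1 in R 4.3.3 (mean-variance trend, two-sided, Benjamini-Hochberg over all tested genes, threshold 0.05). The procedure was tested on simulated data. Coordinates are from GENCODE v29 (GRCh38). Members, gene lists and tests were chosen with earlier results of these data known. Genes named are the members and ligands, and in each wider list any called gene, the 2 largest changes and the 2 highest levels. Some genes under these rules are not reported here. Also named are protein-coding genes within 100 kb of GH1, the 5 genes most correlated with it, and genes that switch between 5 FPKM or more and under 1. Alternatives changed the pseudocount, filter, scaling, variance model, library weights, replicate block or libraries used.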

Additional observations from a re-analysis of the deposited data

How the results depend on the processing

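GH1 was chosen for values far apart in the 2 groups, so its direction could not change under the alternatives. Only the size is described. Among the 14 alternatives that give GH1 a value, the log2 change was -9.34 at a pseudocount of 0.1 and -7.20 with TPM scaling. Without any 1 control replicate GH1 falls below the filter, which needs 3 libraries, and no value is given. Without overexpression replicates it ran from -6.67 to -6.49. No alternative called any of the 7 other tested members (smallest adjusted p 0.245, GHR, limma). With the filter at an FPKM of 5, JAK2 and SOCS2 were not tested. The sign of changes near 0 was not stable: with array weights CISH was at -0.0065 and PIAS3 at -0.0134, and with quantile scaling CDKN1A was at -0.0185. With 1 library left out GHR ran from 0.127 to 0.281, PRLR from 0.0498 to 0.144, JAK2 from 0.0642 to 0.291, STAT5B from -0.221 to -0.122, SOCS2 from 0.0049 to 0.198, CISH from -0.0181 to 0.118, IGF1R from -0.152 to 0.0685, PIAS3 from -0.0508 to 0.0536, PTPN11 from -0.0069 to 0.0533 and CDKN1A from -0.0407 to 0.0474. Of 13185 genes 28 were called in the main analysis. This became 4 without a filter, 64 with the filter at an FPKM of 5, 17 with median-of-ratios scaling, 5 without a variance trend and 145 with the replicate block. With 1 library left out it ran from 4 (without overexpression replicate 3) to 36, with 9 after control replicate 2 was left out, 14 after control replicate 3, 9 after overexpression replicate 1 and 15 after overexpression replicate 2. The cause was not tested, beyond the fewer samples or genes that some alternatives leave. The replicate block also called 1 gene of the wider lists, STC2 (adjusted p = 0.0135), against 0 in every other alternative. Same-numbered libraries correlated at 0.136, 0.009 and 0.175 in their deviations from the group means, so the numbers were not taken as pairs, and not every library correlated best with its own number. STAT5A and IGF1 were under the minimum level for testing, and read depth is unknown.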
